A study of Mus musculus with 8 samples.

Results

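The T-box transcription factors are a family of regulators that share one DNA-binding domain, the T-box, first described in Brachyury. Here 10 of them were followed, namely Tbx1, Tbx2, Tbx3, Tbx4, Tbx5, Tbx15, Tbx18, Tbx20, Tbx21 and Eomes. They were taken as the non-control probes of the array whose design accession leads to one of these gene symbols in RefSeq, which gave 13 probes for the 10 genes, of 55681 probes on the array. The arrays compared epidermal RNA of 4 EED cKO with that of 4 control samples, taken from the back skin of C57BL/6 mice on the day of birth (P0). EED cKO mice carried K14-Cre and floxed Eed, so that Cre made from the keratin 14 promoter deleted Eed in epidermal progenitors and the cells that derive from them. The labels describe the other animals only as control. Every array held 1 sample beside Universal Mouse Reference RNA, a commercial mix that served as the common reference, with the sample in Cy3 on replicates 1 and 3 and in Cy5 on replicates 2 and 4 of both genotypes. Values are log2 ratios of sample over reference for 1 probe, so they compare arrays for that probe and not one gene with another.

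Eed encodes a subunit of Polycomb repressive complex 2 (PRC2), which places a repressive methyl mark on histones and keeps many developmental regulators silent outside the tissues that use them. T-box genes are among the regulators that PRC2 commonly marks. Members of the family pattern the limbs, heart, face, somites and trunk skin of the embryo, and a few act in lymphocytes.

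The epidermis label was checked against defining markers. All 5 basal markers (Krt5, Krt14, Trp63, Itga6 and Col17a1) and the 4 suprabasal markers with a probe were well above background on all 8 arrays. The dermal fibroblast markers Col1a1, Col1a2, Col3a1, Pdgfra, Lum, Dcn and Twist2 were so on all 8 arrays as well. The flags thus do not tell epidermis from dermis, and the share of dermal RNA was not measured. Spots well above background in the sample channel made up 51.5% to 65.5% of each array, and no spot was saturated. The log2 ratio of Eed itself was -0.35 ± 0.13 (SD, n = 4) on control arrays and -1.80 ± 0.17 (SD, n = 4) on EED cKO arrays, although where its probe lies relative to the deleted part of the gene was not determined. All 8 arrays lay on 1 slide, with the EED cKO arrays in row 1 and the control arrays in row 2, so slide row and genotype cannot be told apart. In the reference channel, which held the same RNA everywhere, the members that were tested differed by -0.04 to 0.04 on the log2 scale between the rows. In that channel Tbx20 was well above background on no array and Tbx5 on 2 arrays of each genotype. Among everything tested, 18 targets differed there by at least 2-fold with a limma adjusted p below 0.05. The Y-linked gene Ddx3y had log2 ratios of 1.60 and 1.37 in control replicates 2 and 3 and -2.84 to -2.29 on the other 6 arrays, so Y-linked RNA was high in those control samples and in no EED cKO sample. Results without those control samples are given for tested members and for counts, where they change. The partners, neighbours, markers and correlations below are from all 8 arrays only.

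For each spot the scanner software flags whether a channel is well above background. A gene was tested where 3 or 4 arrays of either genotype carried this flag for its brightest probe in the channel of the sample. Of the 10 members, 6 passed (Tbx1, Tbx2, Tbx3, Tbx5, Tbx15 and Tbx20) and 4 did not (Tbx4, Tbx18, Tbx21 and Eomes). Tbx5, Tbx15 and Tbx20 passed through the EED cKO arrays alone, the arrays on which they were higher. The counts over the tested members therefore describe them and support nothing further. The p-values of Tbx5, Tbx15 and Tbx20 are likewise those of genes that this filter let in. With limma, 1 member, Tbx15, was past both limits of a call, a 2-fold change and an adjusted p below 0.05, and it was higher in EED cKO. Over all 23139 genes and other targets tested, 1.1% were higher by the same rule and 0.0994% were lower. At any fold change 4 members had an adjusted p below 0.05, namely Tbx15, Tbx1, Tbx3 and Tbx5, all higher in EED cKO. The background for that rule was 11.8% higher and 9.93% lower. The median log2 fold change of everything tested was 0.02. Since each RNA came from all cells of the epidermis together, a lower value through fewer cells of a type and one through less RNA per cell cannot be told apart, and the same holds for a higher value.

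**Figure D1:**
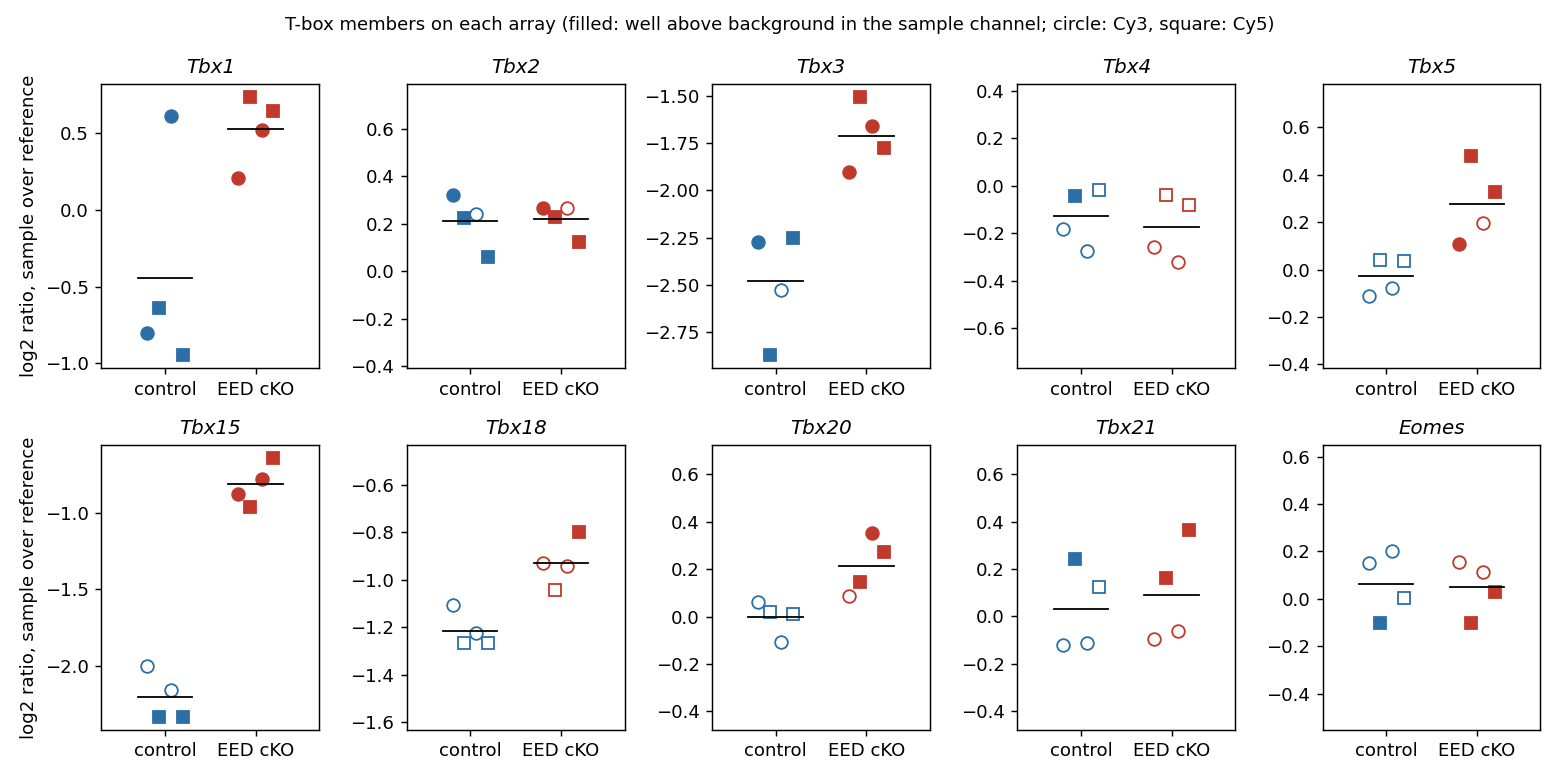
Log2 ratio of sample over reference (y axis, own range in each panel) of the 10 T-box genes on each of the 4 control (blue) and 4 EED cKO (red) arrays, with the group mean as a line, filled symbols for arrays well above background, and circles and squares for the sample in Cy3 and Cy5. The groups are apart for Tbx3, Tbx5, Tbx15, Tbx18 and Tbx20, control replicate 3 lies among the EED cKO arrays for Tbx1, and most points of Tbx4, Tbx18, Tbx21 and Eomes are open.

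Tbx15 was 2.63-fold higher in EED cKO epidermis, a size that rests partly on control signals near background. This was the largest fitted difference of the tested members on all 8 arrays, though not without control replicates 2 and 3, where the log2 fold change was 1.36 for Tbx15 and 1.41 for Tbx1. It acts in the embryonic dermis and skeleton, where it sets the border between dorsal and ventral coat colour and shapes the shoulder and head bones. The log2 ratio of its 1 probe on EED cKO replicates 1 to 4 was -0.87, -0.96, -0.77 and -0.64, and on control replicates 1 to 4 it was -2.00, -2.34, -2.16 and -2.34. Every EED cKO array lay above every control array with a gap wider than the range of either group, and all 4 EED cKO arrays but only 2 control arrays (replicates 2 and 4) were well above background. Its spot stood 76.5 to 111.5 scanner units above local background in EED cKO and 9.5 to 23 in control samples. The log2 fold change was 1.40 (SE 0.10, 95% interval 1.18 to 1.61, limma adjusted p = 4.59e-05). An exact permutation test over the 8 arrays gave a two-sided p = 0.0286, below which this number of arrays cannot go. Any full separation of the groups gives this value, so it only restates the separation. The difference was 1.26 among the arrays with the sample in Cy3 and 1.54 among those with Cy5. It passed the adjusted p and the 2-fold limit in all 26 alternative fits that adjust p, from 1.20 with median centring in place of loess to 3.89 with the log ratio of the scanner software. Other filters and probe rules, the fit without the dye term and the replicate block could not move its estimate from 1.40. The deposited log2 table, with nearly the same values as the scanner software, counts as a separate fit among the 26.

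The closest relative of Tbx15, Tbx18, is known from the epicardium, the sinus node, the ureter and the dermal papilla. Its probe gave log2 ratios of -0.93, -1.04, -0.94 and -0.80 on EED cKO replicates 1 to 4 and of -1.11, -1.26, -1.22 and -1.27 on control replicates 1 to 4. The groups did not overlap, but the probe was well above background on 1 of the 8 arrays only, EED cKO replicate 4, and Tbx18 was therefore not tested. With no filter on any probe its log2 fold change would be 0.29 (SE 0.07, limma adjusted p = 0.0267 over all probes).

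Tbx1 was 1.96-fold higher in EED cKO on average, with overlapping groups. It is required for the pharyngeal arches, the outflow tract of the heart and the tooth, and in skin it is known from hair follicle stem cells. Its log2 ratios were 0.21, 0.74, 0.52 and 0.64 on EED cKO replicates 1 to 4 and -0.81, -0.64, 0.61 and -0.95 on control replicates 1 to 4. Control replicate 3 was as high as the EED cKO arrays, whereas the other 3 control arrays lay below all of them, and the probe was well above background on all 8 arrays. The spread of the control samples (SD 0.72) was therefore wider than that of the EED cKO samples (SD 0.23). The log2 fold change was 0.97 (SE 0.30, 95% interval 0.31 to 1.64, limma adjusted p = 0.0438), just inside the threshold, and the exact permutation test gave a two-sided p = 0.0857. Without control replicate 3 the log2 fold change was 1.36 (limma adjusted p = 0.000248), and it was 1.41 without control replicates 2 and 3. Tbx1 missed the adjusted p threshold in 13 of 26 alternative fits that adjust p, and it passed both limits in 6. The limma adjusted p reached 0.619 in the 4 arrays with the sample in Cy3, where the difference was 0.46. Among the arrays with Cy5 it was 1.49.

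Tbx1 was also the only one of the 4 members that rose for which a promoter window was at hand, and its sequence is shown because PRC2 is known to bind CpG-rich promoters. RefSeq windows on GRCm38.p6 matched 6 of the 10 members, with none for Tbx2, Tbx3, Tbx5 and Tbx15. The 250 bases before the first of its listed starts (chr16:18588900-18589149, minus strand) hold 17 CpG dinucleotides, and those before another start hold 10. Across 32851 windows of the same length the median was 6, and 76.5% and 62.2% of them held fewer CpG than these. The window of Tbx4 (chr11:85896515-85896764, plus strand), with 6, the fewest among the members that had a window, is printed beside it. Each is given 5′ to 3′ on the strand of the gene, with CpG in capitals.
Tbx1: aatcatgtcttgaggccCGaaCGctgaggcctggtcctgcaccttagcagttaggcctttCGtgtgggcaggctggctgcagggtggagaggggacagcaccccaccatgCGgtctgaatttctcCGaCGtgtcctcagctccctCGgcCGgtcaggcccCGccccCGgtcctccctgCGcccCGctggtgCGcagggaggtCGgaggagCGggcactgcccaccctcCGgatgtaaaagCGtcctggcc
Tbx4: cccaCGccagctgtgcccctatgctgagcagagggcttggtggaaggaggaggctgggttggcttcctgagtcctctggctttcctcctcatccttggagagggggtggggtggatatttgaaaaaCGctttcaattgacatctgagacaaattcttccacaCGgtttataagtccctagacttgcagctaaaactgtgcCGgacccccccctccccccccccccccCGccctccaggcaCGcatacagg
The other windows held 22 CpG for Tbx20, 16 for Tbx21, 15 for Tbx18 and 8 for Eomes. Tbx20 thus held more than Tbx1 without passing the adjusted p threshold, and the other genes named here were not tested. Whether CpG content goes with the changes in RNA was not tested. The T-box motif AGGTGTGA was searched on both strands and occurs in 1.12% of all windows and in none of these. That states only that these letters are not in these windows.

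Tbx20, a regulator of heart muscle and heart valves, lay close to background. Its brightest probe gave log2 ratios of 0.09, 0.14, 0.35 and 0.27 on EED cKO replicates 1 to 4 and 0.06, 0.02, -0.11 and 0.01 on control replicates 1 to 4. EED cKO replicates 2 to 4 and no control array were well above background, and the reference channel was not above it on any array. The groups did not overlap, but the log2 fold change of 0.22 (SE 0.08, 95% interval 0.04 to 0.40) missed the threshold (limma adjusted p = 0.0850). In the sample channel, control values were raised, where lower, to the dimmest signal that still counted as well above background on that array. Against these the EED cKO mean was 1.13-fold higher, with no error attached. That mean includes EED cKO replicate 1, which was not well above background, so 1.13 is not a lower limit. The lower end of the 95% interval, 0.04 on the log2 scale, is a smaller change. So is the log2 fold change of 0.15 with median centring. The other 2 probes of Tbx20 did not pass the filter and gave differences of 0.07 and -0.00.

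Tbx3 belongs to the second group of the family here, with Tbx2, Tbx4 and Tbx5. Tbx3 is a repressor required for mammary gland and limb development and is known from epidermal progenitors of the embryo, and it was 1.71-fold higher in EED cKO. Its log2 ratios were -1.90, -1.50, -1.66 and -1.78 on EED cKO replicates 1 to 4 and -2.27, -2.88, -2.53 and -2.26 on control replicates 1 to 4. In these ratios all EED cKO arrays were above all control arrays, and all but control replicate 3 were well above background. Before normalization the groups overlapped. Its spot stood 67, 156, 82 and 74.5 scanner units above local background on EED cKO replicates 1 to 4. On control replicates 1 to 4 it stood 33, 39, 36 and 82 units above. The log2 fold change was 0.77 (SE 0.15, 95% interval 0.45 to 1.10, limma adjusted p = 0.00663), and the exact permutation test gave a two-sided p = 0.0286. The difference was 0.62 within Cy3 (limma adjusted p = 0.0834 in those 4 arrays) and 0.93 within Cy5. Without control replicates 2 and 3 it was 0.56 (limma adjusted p = 0.0206).

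Tbx2, the nearest relative of Tbx3 and likewise a repressor, did not pass the test. Its log2 ratios were 0.26, 0.23, 0.27 and 0.12 on EED cKO replicates 1 to 4 and 0.32, 0.23, 0.24 and 0.06 on control replicates 1 to 4. The groups covered nearly the same range, and 3 arrays of each genotype were well above background. Its spot stood only 17 to 36.5 scanner units above local background. The background correction draws the ratios of such dim spots toward 0, so the interval below holds for the corrected ratios only. The log2 fold change was 0.01 (SE 0.07, limma adjusted p = 0.947), with a 95% interval of -0.15 to 0.16, and its sign turned in 7 of 25 alternative fits.

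For Tbx5, which specifies the forelimb and the heart, the fitted change was 1.24-fold. The log2 ratios were 0.11, 0.48, 0.20 and 0.33 on EED cKO replicates 1 to 4 and -0.11, 0.04, -0.08 and 0.04 on control replicates 1 to 4. The groups did not overlap, which by itself fixes the two-sided p of the exact permutation test at 0.0286. The probe was well above background on EED cKO replicates 1, 2 and 4 and on none of the control arrays. With control values raised as for Tbx20, the EED cKO mean in the sample channel was 1.19-fold higher, with no error attached. That mean includes EED cKO replicate 3, which was not well above background, so 1.19 is not a lower limit. Median centring gave a log2 fold change of 0.23, a smaller change. The log2 fold change was 0.31 (SE 0.07, 95% interval 0.15 to 0.46, limma adjusted p = 0.0138). Tbx5 passed both limits in 2 of the 22 alternative fits that tested it. The adjusted p threshold alone was missed in 6 of the 22, among them those without the dye term (limma adjusted p = 0.0751), with median centring (adjusted p = 0.103) and without control replicates 2 and 3 (adjusted p = 0.0683). Under the stricter filter, and without EED cKO replicate 1, 2 or 4, Tbx5 failed the filter and was not tested. With the scanner software's log ratio the value was 2.66, against control signals that were not above background.

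Tbx4, the hindlimb counterpart of Tbx5, was well above background on 1 of the 8 arrays only, control replicate 2. Its log2 ratios were -0.26, -0.04, -0.32 and -0.08 on EED cKO replicates 1 to 4 and -0.18, -0.04, -0.28 and -0.02 on control replicates 1 to 4. The groups overlapped almost entirely, and the arrays sorted by dye rather than by genotype.

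Of the 6 tested members, 4 had all EED cKO arrays above all control arrays and none had them all below, against 9.68% and 7.52% of everything tested. These were Tbx3, Tbx5, Tbx15 and Tbx20, of which all but Tbx3 had entered through the EED cKO arrays.

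**Figure D2:**
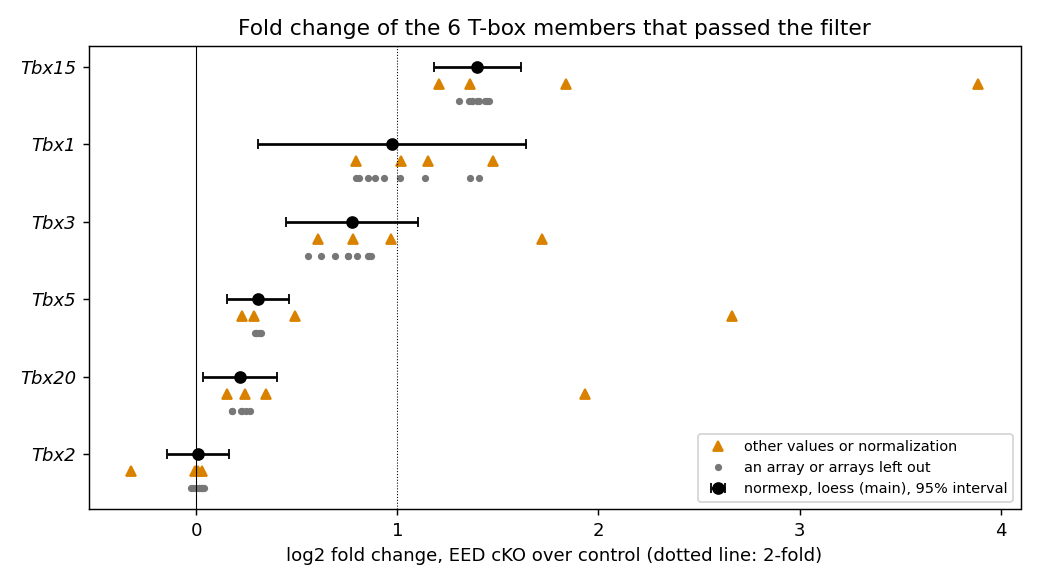
Log2 fold change of EED cKO over control (x axis) for the 6 tested T-box genes, as the limma estimate with its 95% interval (black), under other values or normalizations (orange triangles) and with 1 or more arrays left out (gray points). Tbx15 stays right of the dotted 2-fold line throughout, Tbx1 has the widest interval, 0.31 to 1.64, and the triangles far to the right at 3.89 for Tbx15 and 2.66 for Tbx5 are the scanner software's own log ratio.

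The remaining members, Tbx21 and Eomes, direct the effector programs of T cells and natural killer cells, and Eomes also acts in the early embryo. Tbx21 gave log2 ratios of -0.10, 0.16, -0.06 and 0.36 on EED cKO replicates 1 to 4 and -0.12, 0.24, -0.11 and 0.12 on control replicates 1 to 4, well above background on 3 of 8 arrays. The brighter probe of Eomes gave 0.16, -0.10, 0.12 and 0.03 on EED cKO replicates 1 to 4 and 0.15, -0.10, 0.20 and 0.01 on control replicates 1 to 4, again well above background on 3 of 8 arrays. Its other probe was above background on none. The genotypes overlapped for both genes, and neither was tested. Of 10 markers of T and natural killer cells, 7 were tested, and Cd3e (log2 fold change 0.54, limma adjusted p = 0.00349) and Nkg7 (0.42, limma adjusted p = 0.0132) were higher in EED cKO. The other tested markers did not pass, with log2 fold changes of -0.25 for Cd3d, -0.20 for Klrd1, -0.13 for Thy1, 0.05 for Cd3g and 0.00 for Ptprc. The list means of the 7 overlapped, at -0.58 to -0.35 in EED cKO and -0.66 to -0.32 in control samples.

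Of the other 7 T-box genes on the array, 4 were tested (Tbr1, Tbx6, Tbx10 and Mga) and none had an adjusted p below 0.05 in limma. Tbr1, a cortical neuron factor related to Eomes and Tbx21, had a log2 fold change of 0.27 (SE 0.09, limma adjusted p = 0.0638) and was above background on 3 EED cKO arrays and no control array. Mga, which also binds Max, had -0.14, Tbx10 had 0.09 and Tbx6, a somite factor, had 0.01. Brachyury, Tbx19 and Tbx22 were not above background on any array.

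A list of 37 genes that are known to act with T-box factors or downstream of them held 27 tested genes. In limma 6 were higher and 2 lower at an adjusted p below 0.05, or 22.2% and 7.41% of the 27, and 2 of the 6 reached 2-fold. For everything tested the shares were 11.8% and 9.93%, and 1.1% were higher by at least 2-fold. The list was chosen with earlier results of these data known and was not tested as a set. Pitx1, a hindlimb factor that acts upstream of Tbx4, had log2 ratios of 4.01, 4.89, 4.01 and 4.39 on EED cKO replicates 1 to 4 and 0.04, 0.94, 0.79 and 0.36 on control replicates 1 to 4, a log2 fold change of 3.79. Cdkn2a, a cell cycle inhibitor locus that Tbx2 and Tbx3 are known to repress, had ratios of -1.50, -1.75, -1.53 and -1.98 in EED cKO and -4.99, -5.57, -5.28 and -5.61 in control samples, a log2 fold change of 3.67, with 1.14 from its other probe.

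The smaller rises were those of Osr1 (log2 fold change 0.75), an early heart and kidney mesoderm factor, Cdkn1c (0.64), a cell cycle inhibitor, and the heart factors Nkx2-5 (0.47) and Gata4 (0.45), which bind DNA beside Tbx5 and Tbx20. The Groucho corepressor gene Tle3 (-0.79) and the Notch ligand gene Dll1 (-0.60), a target of Tbx6 in somites, were lower. The lymphocyte targets Cxcr3, Il12rb2, Stat4, Prf1 and Ccl5 had log2 fold changes of -0.19, 0.07, 0.14, 0.26 and 0.14 and did not pass the test. Cdkn1a, another cell cycle inhibitor repressed by Tbx2 and Tbx3, had -0.13 (SE 0.14, limma adjusted p = 0.562).

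**Figure D3:**
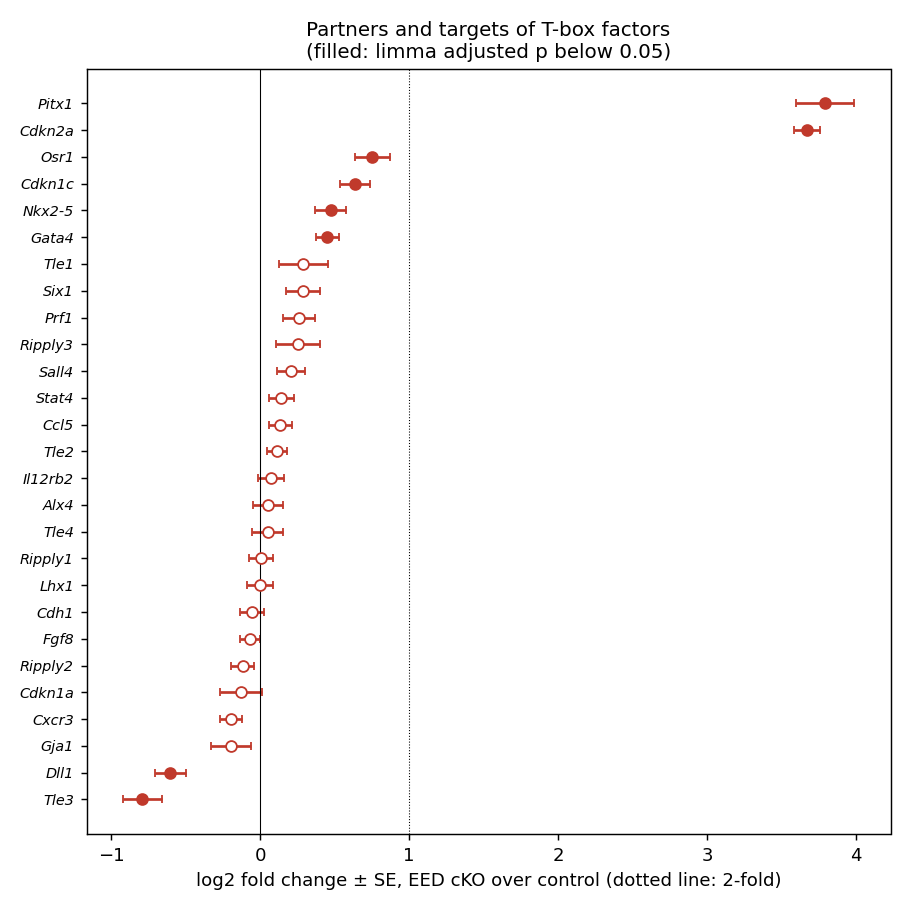
Log2 fold change of EED cKO over control with its SE (x axis) for the 27 tested genes known to act with T-box factors or downstream of them, filled where the limma adjusted p was below 0.05. Pitx1 at 3.79 and Cdkn2a at 3.67 stand far to the right of the dotted 2-fold line, and Tle3 and Dll1 are the filled points left of 0.

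Several members lie in pairs or beside genes with other roles, and the nearest protein-coding genes in RefSeq order were read as well. Of 16 such neighbours that are not members, 12 were tested and 2 had an adjusted p below 0.05, 1 higher and 1 lower. The shares over everything tested were 11.8% higher and 9.93% lower, so this count does not set the neighbours apart. On either side of the Tbx3 and Tbx5 pair, Med13l had a log2 fold change of -0.18 (SE 0.08) and Rbm19 of -0.11 (SE 0.08), neither past the test. Wars2, beside Tbx15, had 0.18 (SE 0.13), and Spag17 on the other side of Tbx15 was not tested. The pair of Tbx2 and Tbx4 lies between Bcas3 (0.04, SE 0.10) and Brip1 (-0.02, SE 0.13). Nt5e, which makes extracellular adenosine and lies next to Tbx18, was higher, with a log2 fold change of 1.05 (SE 0.24, limma adjusted p = 0.0149). Golga4, a Golgi protein gene next to Eomes, was lower (-0.41, SE 0.12, limma adjusted p = 0.0414).

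**Figure D4:**
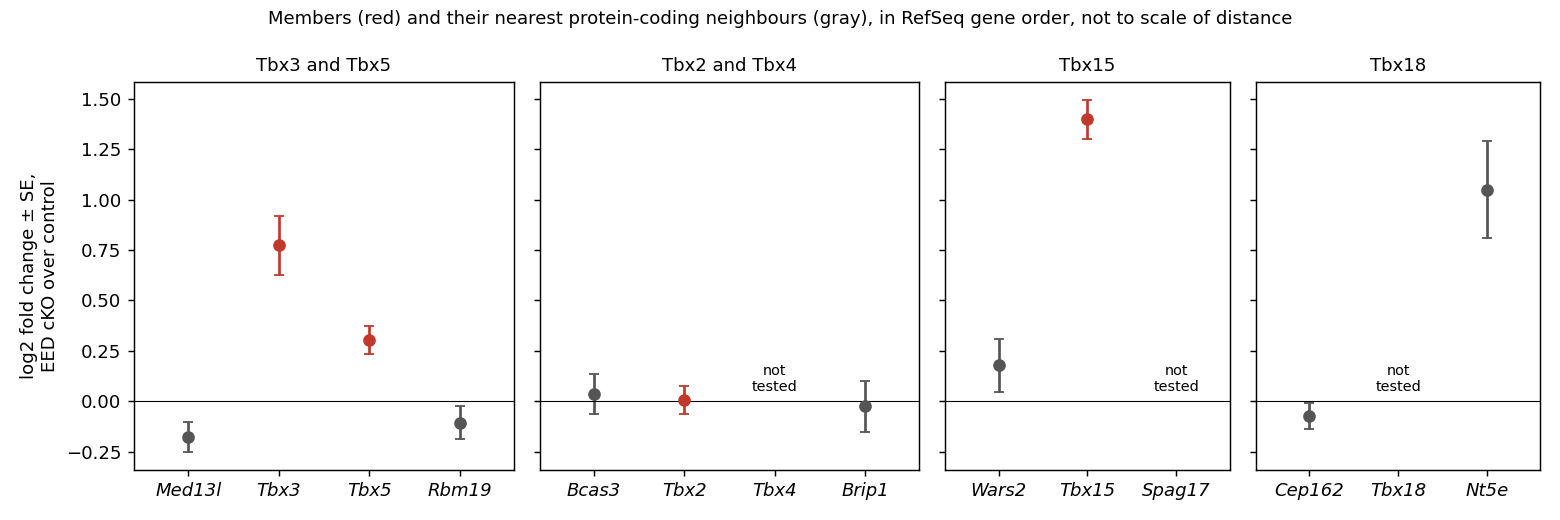
Log2 fold change of EED cKO over control with its SE (y axis) for T-box genes (red) and their nearest protein-coding neighbours (gray), in RefSeq order and not to scale of distance. Tbx3, Tbx5 and Tbx15 stand above their tested neighbours, whose values lie between -0.18 and 0.18, while Spag17 beside Tbx15 was not tested. Nt5e stands at 1.05 beside Tbx18, which was not tested.

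Over the 8 arrays the genes whose log2 ratio most resembled that of Tbx15 were Lbx2 (Pearson's r = 0.996), Nts (r = 0.994) and S100a6 (r = 0.991). Each also differed between the genotypes, with log2 fold changes of 1.21 for Lbx2, a homeobox gene, 3.65 for the peptide hormone gene Nts and 1.13 for S100a6, a calcium-binding protein gene. These correlations are a description over 8 arrays of 2 genotypes that share dyes and reference, and they include the genotype difference.

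Some markers of other cells differed between the genotypes beside these values. Of 6 Merkel cell markers all 6 were higher in EED cKO, Krt20 by more than 2-fold (log2 fold change 1.12, limma adjusted p = 6.87e-05), with the mean log2 ratio of the list between -0.95 and -0.82 on EED cKO arrays and between -1.67 and -1.53 on control arrays. Both tested endothelial markers of 5, Pecam1 and Kdr, were higher, with list means of 0.99 to 1.41 against 0.20 to 0.64, while Cdh5 and Tek were above background on no array. For Langerhans cells 2 of 3 tested markers were higher, Cd74 (0.46) and, by more than 2-fold, H2-Ab1 (log2 fold change 1.55, limma adjusted p = 0.00936). Epcam (0.10), with which the paper gated all epidermal cells, did not pass the test. The list means overlapped, at 0.50 to 0.89 against -0.27 to 0.56, and Cd207 was above background on 1 array and not tested. The part of these cells in the values of the T-box genes was not tested. For the dermis, the tissue in which Tbx15 and Tbx18 are best known, 2 of 8 fibroblast markers were higher (Lum 0.50 and Fbn1 0.30) and the list means overlapped, at -3.17 to -3.00 in EED cKO and -3.31 to -3.04 in control samples. The collagen genes Col1a1, Col1a2 and Col3a1 had log2 fold changes of -0.04, 0.12 and -0.18 and did not pass the test. Among 4 tested dermal papilla markers Crabp1 was higher (0.35), with list means of -1.62 to -1.53 against -1.89 to -1.56, and among 4 tested heart genes Myl7 was higher (0.42), with list means of -0.08 to 0.16 against -0.28 to 0.06. Of the basal markers Itga6 (-0.74) and Col17a1 (-0.33) were lower.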

How the data were processed

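RNA from 4 EED cKO and 4 control samples was analysed on Agilent 2-colour arrays. The authors amplified 100 ng of total RNA per sample, scanned the arrays and deposited the output of Agilent Feature Extraction 12.0.1.1, which gives per channel the median intensity of the spot and of its local background, background flags, and a log10 ratio (red over green). A log2 table was deposited as well. Its values were nearly those of the log10 ratio turned to sample over reference, and it was not centred (medians of 0.03 to 0.14 per array).

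Here R 4.3.3 and limma 3.58.1 were used. Background was corrected by normexp (offset 50), which draws the ratios of dim spots toward 0. Each array was normalized by loess with control spots at weight 0, outlier spots were left out, and swapped arrays were turned. Values of a single channel, sample or reference, were taken after a further step. It brought the average intensities of the spots to a common distribution across arrays by quantile normalization. Of 29796 probes named by a RefSeq accession, 28026 matched a gene. The design used a build older than GRCm38.p6, so positions are given for the RefSeq promoter windows alone. A gene was represented by its brightest probe, kept if it passed the filter. An earlier run took the brightest among the probes that pass (23238 tested), and the present rule was kept after both results were seen. The fit held genotype and dye, with Benjamini-Hochberg adjustment over 23139 targets, 19 missing values left unfilled, and calls at an adjusted p below 0.05 with and without a 2-fold limit. The labels call the samples of a genotype biological replicates, and the number of arrays limits the precision. On simulated arrays with 200 of 23120 genes changed 3-fold, 199 were recovered in both simulations, with 2 and 0 false calls. The changes were added to ratios after background correction, normalization and filter. The simulation therefore does not measure how well changes of dim probes are recovered.

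The members and gene lists were chosen with earlier results of these data known, and 1 further gene of the list of partners and targets is not reported here. Every member was named with its values, as were list genes past both limits and the 3 genes most correlated with a member past both limits. The neighbours, the fits within a dye, the list genes below 2-fold, the markers named singly and the promoter windows printed were chosen after values were seen. Same-numbered samples deviated together (correlations of 0.49, 0.68, 0.33 and 0.36, and with the dye removed 0.13 and 0.46). The meaning of the number is not in the labels, and it also marks the slide column. The alternatives were other background correction, values, normalization, channel, filters, probe rules, covariates, moderation and tests, the replicate block, and arrays left out.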

Additional observations from a re-analysis of the deposited data

How the results depend on the processing

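Tbx15 was past both limits in all 26 alternative fits that adjust p, and Tbx1, Tbx3, Tbx5 and Tbx20 kept their direction in all of theirs. Several of these fits, such as other filters or the fit without the dye term, could not move the estimate of a gene. The count of members changed at least 2-fold was 1, and it was 2 with no background correction, in the sample channel alone and without both control replicates 2 and 3, and 4 with the Feature Extraction log ratio and with the deposited log2 table. With a replicate left out it ranged from 1 to 2, reaching 2 without EED cKO replicate 1 or control replicate 3. At any fold the count was 4, and it was 2 with median centring and with no dye term, 1 with the methods' t-test after Benjamini-Hochberg adjustment (5 unadjusted), and 2 to 4 with a replicate left out, being 2 without EED cKO replicate 2 or 4, where Tbx5 and Tbx20 also left the filter. Without both control replicates 2 and 3 it was 3. Over all genes the count was 278 (255 higher and 23 lower), 699 (593 and 106) with the Feature Extraction log ratio, 698 with the deposited table, 275 with the methods' t-test unadjusted and 175 after adjustment (166 and 9), and 255 to 317 with a replicate left out. Median centring gave 156 higher and 56 lower, and leaving out both control replicates 2 and 3 gave 313 higher and 20 lower. The replicate block, which pairs same-numbered samples, kept the member counts at 1 and 4, with 279 over all genes, and changed no call of a member. The rule run first, the brightest among the probes that pass the filter, gave the same counts of 1, 4 and 278, and the present rule replaced it after its results were seen. The cause of these shifts was not tested.

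The log2 fold change of Tbx2 turned to -0.33 with the Feature Extraction log ratio and likewise with the deposited log2 table, to -0.0076 with median centring and to -0.0148 in the arrays with the sample in Cy3, and with a replicate left out it ranged from -0.0291 to 0.0368. Tbx1 ranged from 0.79 to 1.36 with a replicate left out, and of these fits only those without EED cKO replicate 1 and without control replicate 3 kept its adjusted p below 0.05. Tbx3 missed the threshold in the methods' t-test after adjustment (adjusted p = 0.0629) and within Cy3. Tbx20 passed with the Feature Extraction log ratio (1.93, limma adjusted p = 0.0437). Signals near background limit Tbx2, Tbx4, Tbx5, Tbx18, Tbx20, Tbx21 and Eomes, and they limit the control values of Tbx15.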
